A study of Mus musculus with 6 samples.

Results

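The 10 genes *Fn1*, *Tnc*, *Tnxb*, *Thbs1*, *Thbs2*, *Thbs3*, *Sparc*, *Postn*, *Ecm1* and *Myoc* encode fibronectin, tenascins and matricellular proteins of the extracellular matrix (ECM). They were taken by gene symbol from the authors' table of normalized counts, which has 16247 rows, and all 10 were present and had enough reads to be tested among 14696 genes. Their mRNA was compared in the soleus, a calf muscle rich in slow fibers, of 3 *Mustn1* KO-first heterozygous (HET) mice and 3 wild-type (WT) littermates. All 6 mice were C57BL6/N, 8 weeks old, and untreated as far as the labels say. The HET mice carry 1 whole-body KO-first allele, in which a splice acceptor joins exon 1 of *Mustn1* to a lacZ reporter with a neomycin resistance gene, so that the other allele remains and no cell type is targeted. Each mouse gave 1 library of reads from polyA RNA.

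Matricellular proteins are secreted into the matrix but mainly signal to cells and organize other matrix proteins rather than bear load. Fibronectin is laid down as fibrils that cells pull into place through integrins, and collagen, tenascin-C, thrombospondin-1 and periostin bind or build on that network. In skeletal muscle these genes are expressed mostly by fibroblasts, fibro-adipogenic progenitors, tendon cells and vessel cells rather than by the fibers, and several are known to be induced by loading, injury and regeneration.

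The libraries held between 26790075 and 50368796 reads on genes. *Mustn1*, the targeted gene, read 12.6, 16.8 and 13.1 CPM (reads on the gene scaled to a library of fixed size) in HET replicates 1 to 3 and 23.1, 29.0 and 30.5 CPM in WT replicates 1 to 3, and its log2 fold change was -0.96 (SE 0.15, adjusted p = 0.0452 in edgeR's quasi-likelihood test). The labels give all 6 mice as male, but *Xist* had from 3858 to 9154 reads in each library whereas 4 Y chromosome genes had at most 12 together, so the labelled sex goes against the data in HET and WT alike. The slow fiber markers *Myh7*, *Tnnt1*, *Tnni1* and *Myl2* each read at least 1650 CPM in every library. No source says which mice shared a litter. The edgeR p-values set the difference between genotypes against the spread between these 6 mice, estimated partly from all genes tested.

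All 10 genes had a higher mean in HET than in WT, by between 1.21-fold for *Thbs2* and 2.45-fold for *Thbs1*, and none passed the threshold of 0.05 on the adjusted p in edgeR's quasi-likelihood test over all genes. The background of that test was 0.143%, that is, 21 of 14696 genes were called higher in HET. At an unadjusted p under 0.05, 8 of the 10 genes were higher, the exceptions being *Thbs2* and *Postn*, against 5.76% of all genes tested. DESeq2's Wald test called 6 of the 10 higher, *Tnc*, *Thbs1*, *Thbs3*, *Sparc*, *Ecm1* and *Myoc*, against 1.12% of the 17801 genes to which it gave an adjusted p. In 6 genes, *Fn1*, *Tnc*, *Thbs1*, *Thbs3*, *Ecm1* and *Myoc*, every HET mouse read above every WT mouse, which held for 7.55% of all genes tested. The median log2 fold change of the 10 was 0.75, and that of all genes tested was -0.02, with 45.6% of all genes above 0. All 10 genes were on the higher side under each of the 18 alternative settings tried, and whether any passed the threshold depended on the setting.

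**Figure D1:**
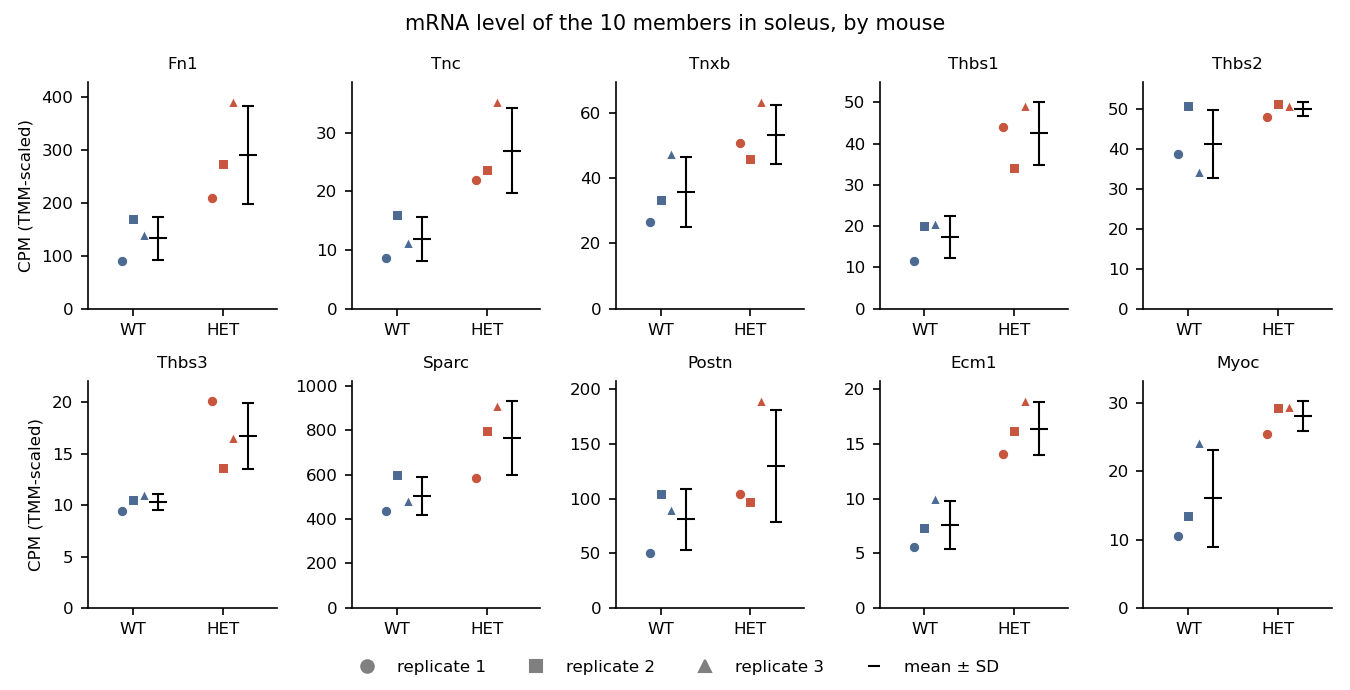
mRNA level of each of the 10 genes (vertical axis, CPM scaled with TMM factors, from 0) in the 3 WT and 3 HET mice, with 1 point per mouse, its shape giving the replicate number, and the mean ± SD in black. HET replicate 3 is the highest of the 6 mice in 8 panels and WT replicate 1 the lowest in 9, and the genotypes are apart in 6 panels.

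*Fn1* (ENSMUSG00000026193, chr1:71585520-71653200, minus strand, GRCm38) encodes fibronectin, the fibril-forming glycoprotein through which integrins grip the matrix. It read 209, 273 and 391 CPM in HET replicates 1 to 3 and 89.6, 169 and 140 CPM in WT replicates 1 to 3. No HET mouse read as low as a WT mouse, and within each genotype the highest value was well apart from the lowest. The means were 291 ± 92.3 CPM in HET and 133 ± 40.0 CPM in WT (SD, n = 3 each). The log2 fold change was 1.13 (SE 0.31, 95% CI 0.38 to 1.89), a 2.19-fold higher mean, with an unadjusted p of 0.0104 and an adjusted p of 0.358 in edgeR, and 0.130 in DESeq2.

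The cell-binding site of fibronectin is the tripeptide Arg-Gly-Asp (RGD), which the integrins alpha5beta1 and alphav bind. The longest annotated *Fn1* coding sequence (GENCODE M21) has 2477 codons in 46 exons. In it the letters RGD start at codons 1614 and 2181. The first is in exon 30 (chr1:71606734-71606763) and the second in exon 40 (chr1:71597431-71597460). The letters alone do not show that a place is the cell-binding site, and which of them integrins bind was not tested. Among the other 9 genes, the letters RGD occur in *Thbs1* (codon 927) and *Thbs2* (codon 928). The stretches of *Thbs1* and *Thbs2* given below span the junction of exons 17 and 18. The letters RGD are not in *Tnc*, *Tnxb*, *Thbs3*, *Sparc*, *Postn*, *Ecm1* or *Myoc*. They occur in the longest coding sequence of 7.25% of 21584 protein-coding genes. The 4 coding stretches are given here because some of the integrins described further on bind this tripeptide in fibronectin, with the RGD codons in capitals (GRCm38, coding strand).
Fn1 codon 1614: gtcactggcCGTGGGGACagtccagcaagc
Fn1 codon 2181: catgttcccAGGGGAGACgtagactaccac
Thbs1 codon 927: ggtgatggcCGAGGTGACgcctgcaaagac
Thbs2 codon 928: ggtgacggcCGAGGTGACatttgtaaagat

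*Tnc* (ENSMUSG00000028364, chr4:63959785-64047015, minus strand) encodes tenascin-C, an oligomeric glycoprotein of tendon and of injured muscle that modulates adhesion to fibronectin. It read 21.9, 23.6 and 35.2 CPM in the HET mice and 8.60, 16 and 11.2 CPM in the WT mice, in the order of the replicate numbers. The genotypes did not overlap. The means were 26.9 ± 7.23 and 11.9 ± 3.73 CPM (SD, n = 3 each), and the log2 fold change was 1.18 (SE 0.25, 95% CI 0.59 to 1.77), a 2.26-fold higher mean. Its unadjusted p was 0.00169 and its adjusted p 0.174 in edgeR, whereas DESeq2 gave an adjusted p of 2.93e-05.

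*Tnxb* (ENSMUSG00000033327, chr17:34670535-34719815, plus strand) encodes tenascin-X, a tenascin of connective tissue sheaths that associates with collagen fibrils and whose deficiency in people loosens skin and joints. It read 50.7, 45.9 and 63.3 CPM in the HET mice and 26.7, 33.2 and 47.4 CPM in the WT mice. HET replicate 2 lay below WT replicate 3, so the genotypes overlapped. The means were 53.3 ± 8.96 and 35.8 ± 10.6 CPM (SD, n = 3 each), with a log2 fold change of 0.57 (SE 0.21, 95% CI 0.09 to 1.05) and adjusted p-values of 0.509 in edgeR and 0.121 in DESeq2. Compared per length, the ratio of *Tnc* to *Tnxb* was 0.677, 0.807 and 0.873 in HET and 0.505, 0.755 and 0.371 in WT. These ratios overlapped, and their log2 difference of 0.58 had a p of 0.200 in a two-sided exact permutation test (adjusted p = 0.200 over 5 ratios), a design in which 0.1 is the smallest p possible. The longest protein products of *Tnc* and *Tnxb* have 2110 and 4006 residues and are 43.4% identical over the 2056 aligned residues.

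Of the thrombospondins, *Thbs1* (ENSMUSG00000040152, chr2:118111876-118127133, plus strand) encodes thrombospondin-1, a trimer that activates latent TGF-beta and inhibits angiogenesis through CD36 and CD47. It read 44.1, 34.2 and 49.1 CPM in HET replicates 1 to 3 and 11.5, 20.0 and 20.5 CPM in WT replicates 1 to 3. The lowest HET mouse was above the highest WT mouse, and *Thbs1* had the largest fold of the 10 genes. The means were 42.5 ± 7.56 and 17.3 ± 5.07 CPM (SD, n = 3 each). The log2 fold change was 1.29 (SE 0.23, 95% CI 0.77 to 1.81), a 2.45-fold higher mean, with an unadjusted p of 0.000417 and adjusted p-values of 0.105 in edgeR and 8.90e-08 in DESeq2.

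*Thbs2* (ENSMUSG00000023885, chr17:14665500-14694262, minus strand) encodes thrombospondin-2, a second trimeric thrombospondin that binds the same receptors and regulates collagen fibril assembly. It read 47.9, 51.1 and 50.7 CPM in the HET mice and 38.8, 50.7 and 34.1 CPM in the WT mice. The HET mice were close to each other and WT replicate 2 read at their level. The means were 49.9 ± 1.72 and 41.2 ± 8.57 CPM (SD, n = 3 each), and the log2 fold change of 0.28 (SE 0.13, 95% CI -0.02 to 0.58) was the smallest of the 10, with adjusted p-values of 0.691 in edgeR and 0.842 in DESeq2. Without WT replicate 2 the log2 fold change of *Thbs2* was 0.45, and without WT replicate 3 it was 0.16.

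*Thbs3* (ENSMUSG00000028047, chr3:89215180-89226837, plus strand) encodes thrombospondin-3, which assembles as a pentamer and lacks the type I repeats through which thrombospondin-1 and thrombospondin-2 bind CD36. It read 20.1, 13.6 and 16.5 CPM in the HET mice and 9.47, 10.5 and 11 CPM in the WT mice, which were close to each other. The genotypes did not overlap. The means were 16.8 ± 3.23 and 10.3 ± 0.783 CPM (SD, n = 3 each), and the log2 fold change was 0.70 (SE 0.15, 95% CI 0.37 to 1.03), a 1.62-fold higher mean, with an unadjusted p of 0.000784 and adjusted p-values of 0.123 in edgeR and 0.00484 in DESeq2. *Thbs3* overlaps *Mtx1* on the opposite strand, and the authors' counting used the strand of the reads.

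The letters CSVTCG, the CD36-binding motif of the type I repeats, start at codons 448 and 505 of *Thbs1* and at codons 393 and 449 of *Thbs2*, and were not in *Thbs3*. They were found in 18 of 21584 protein-coding genes, or 0.0834%. Over aligned residues thrombospondin-1 was 63% identical to thrombospondin-2 and 49.4% identical to thrombospondin-3. These genes had the largest and the smallest folds of the 10. The first copy in each of *Thbs1* (exon 9, chr2:118118200-118118229) and *Thbs2* (exon 8, chr17:14681765-14681794) is given. The copy of *Thbs2* closest in place to codon 448 of *Thbs1* is the one at codon 449, in exon 9. The stretches given thus need not come from matching repeats. The codons of the motif are in capitals.
Thbs1 codon 448: tcgtccTGTTCTGTGACCTGTGGTgacggt
Thbs2 codon 393: accgagTGTTCTGTCACCTGTGGCtctggg

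The balance of the thrombospondins was compared within each mouse, per length. The ratio of *Thbs1* to *Thbs2* was 0.896, 0.653 and 0.945 in HET replicates 1 to 3 and 0.289, 0.385 and 0.586 in WT replicates 1 to 3. *Thbs2* was the more abundant transcript in every mouse, and the ratio in every HET mouse was above that in every WT mouse. The log2 difference of the ratio was 1.03, with a p of 0.1 in the two-sided exact permutation test, the smallest it can give here (adjusted p = 0.167 over 5 ratios). The ratio of *Thbs1* to *Thbs3* likewise did not overlap, with a log2 difference of 0.64, and the ratio of *Thbs3* to *Thbs2* did, with a log2 difference of 0.39.

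*Sparc* (ENSMUSG00000018593, chr11:55394500-55423183, minus strand) encodes SPARC or osteonectin, a collagen-binding glycoprotein that chaperones collagen into fibrils. It read 584, 796 and 910 CPM in the HET mice and 434, 600 and 480 CPM in the WT mice. HET replicate 1 lay just below WT replicate 2, and the other HET mice were above every WT mouse. The means were 763 ± 165 and 505 ± 85.6 CPM (SD, n = 3 each), and the log2 fold change was 0.60 (SE 0.17, 95% CI 0.21 to 0.98), with an unadjusted p of 0.00690 and adjusted p-values of 0.306 in edgeR and 0.0188 in DESeq2. The ratio of *Fn1* to *Sparc*, per length, was 0.116, 0.111 and 0.139 in HET and 0.0669, 0.0911 and 0.0943 in WT, without overlap, a log2 difference of 0.55 (exact permutation p = 0.1, adjusted p = 0.167).

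*Postn* (ENSMUSG00000027750, chr3:54361109-54391037, plus strand) encodes periostin, a fasciclin-domain protein that links tenascin-C, fibronectin and collagen and is abundant in injured and fibrotic muscle. It read 104, 96.8 and 189 CPM in the HET mice and 50.3, 104 and 89.2 CPM in the WT mice. Apart from HET replicate 3 at the top and WT replicate 1 at the bottom, the other 4 mice lay together. The means were 130 ± 51.1 and 81.1 ± 27.6 CPM (SD, n = 3 each), and the log2 fold change of 0.68 had the widest interval of the 10 genes (SE 0.38, 95% CI -0.28 to 1.64), with an unadjusted p of 0.130 and an adjusted p of 0.809 in edgeR. Without HET replicate 3 the log2 fold change of *Postn* was 0.31, and without WT replicate 1 it was 0.43.

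*Ecm1* (ENSMUSG00000028108, chr3:95734147-95739569, minus strand) encodes extracellular matrix protein 1, a secreted scaffold protein that binds perlecan, fibulins and matrix metalloproteinase 9. It read 14.1, 16.2 and 18.9 CPM in HET replicates 1 to 3 and 5.55, 7.31 and 9.93 CPM in WT replicates 1 to 3. The genotypes did not overlap. The means were 16.4 ± 2.40 and 7.60 ± 2.20 CPM (SD, n = 3 each). The log2 fold change was 1.1 (SE 0.20, 95% CI 0.65 to 1.55), a 2.14-fold higher mean, with the smallest unadjusted p of the 10 in edgeR, 0.000281, and adjusted p-values of 0.0855 in edgeR and 3.23e-05 in DESeq2.

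*Myoc* (ENSMUSG00000026697, chr1:162639155-162649693, plus strand) encodes myocilin, an olfactomedin-domain glycoprotein that is best known for its variants in glaucoma and is also made in skeletal muscle. It read 25.5, 29.2 and 29.4 CPM in the HET mice and 10.6, 13.4 and 24.1 CPM in the WT mice. The genotypes were only just apart, since WT replicate 3 read close to HET replicate 1, with a ratio of lowest HET to highest WT of 1.05. The means were 28 ± 2.22 and 16 ± 7.13 CPM (SD, n = 3 each), and the log2 fold change was 0.79 (SE 0.28, 95% CI 0.14 to 1.44), with an unadjusted p of 0.0232 and adjusted p-values of 0.487 in edgeR and 0.0327 in DESeq2. Without WT replicate 3 the log2 fold change of *Myoc* was 1.22, with an adjusted p of 0.0101 in edgeR. *Myocos* lies on the opposite strand of *Myoc*.

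**Figure D2:**
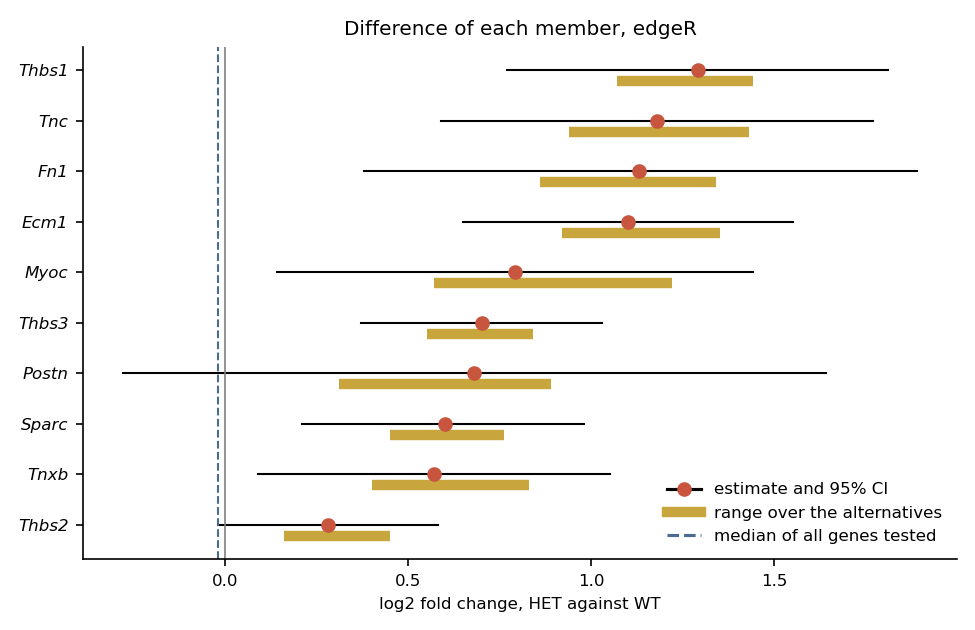
log2 fold change of HET against WT (horizontal axis) for each of the 10 genes, with the edgeR estimate and its 95% CI (point and black line), the range of estimates over the alternatives (yellow bar) and the median of all genes tested (dashed line, -0.02). All 10 estimates lie above 0, from 0.28 for *Thbs2* to 1.29 for *Thbs1*, and the intervals of *Thbs2* and *Postn* include 0.

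Promoters were searched because all 10 genes were on the same side. RefSeq's promoter entries for GRCm38.p6, from 250 bases before to 50 after a transcription start, exist in the table used here for 8 of the 10 genes, and *Fn1* and *Thbs1* have none. On either strand, TATAAA was found in *Tnc*, *Thbs2*, *Postn*, *Ecm1* and *Myoc*, TGACTCA, the letters of the AP-1 site, in *Tnxb* and *Ecm1*, and GGGCGG, the letters of the GC box, in *Tnc*, *Thbs3* and *Ecm1*. *Tnc* and *Postn* have 2 entries each and count once if either holds the motif, and the entry of *Sparc* lies 3103 bases from the start of the gene in GENCODE. Of 32817 promoter entries of the same length, 13.6% hold TATAAA, 5.2% TGACTCA and 35.6% GGGCGG, and the 3 motifs did not overlap each other in these genes. None of the 3 motifs was in all of *Tnc*, *Thbs3*, *Ecm1* and *Myoc*, the genes with an entry whose genotypes did not overlap. Whether these motifs have a part in the levels of the genes was not tested. *Ecm1* is shown as the gene with the smallest p and the only one with all 3 motifs (chr3:95739570-95739819, minus strand), and *Myoc* as one with TATAAA alone at nearly the same place, 26 bases before the start against 27 in *Ecm1* (chr1:162638900-162639149, plus strand). The 250 bases before the start follow, with the motifs in capitals.
Ecm1: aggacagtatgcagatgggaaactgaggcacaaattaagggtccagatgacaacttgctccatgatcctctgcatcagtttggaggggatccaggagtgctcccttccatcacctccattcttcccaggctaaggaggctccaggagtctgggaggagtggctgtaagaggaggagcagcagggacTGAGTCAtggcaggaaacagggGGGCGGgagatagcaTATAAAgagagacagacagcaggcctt
Myoc: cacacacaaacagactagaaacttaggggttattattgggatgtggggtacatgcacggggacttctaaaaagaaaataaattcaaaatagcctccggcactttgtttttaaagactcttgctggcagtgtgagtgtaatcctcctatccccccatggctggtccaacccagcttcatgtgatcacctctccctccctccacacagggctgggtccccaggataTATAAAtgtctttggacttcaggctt

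Compared per length, as CPM per kilobase of exon, *Sparc* was by far the most abundant of the 10, at 202 ± 43.6 in HET and 133 ± 22.6 in WT (SD, n = 3 each). *Fn1* came next at 24.9 ± 7.90 in HET and 11.4 ± 3.42 in WT, followed by *Postn*, *Myoc* and *Thbs2* in both genotypes. *Tnc* had the lowest mean, at 3.46 ± 0.930 in HET and 1.53 ± 0.480 in WT. In HET *Thbs3* was level with it at 3.47 ± 0.670, and was above *Tnc* in only 1 of the 3 mice. *Postn* was above *Myoc* in 2 of the 3 WT mice and in 1 of the 3 HET mice. *Myoc* was above *Thbs2* in 1 of the 3 WT mice. In WT only *Sparc* over *Fn1* and *Thbs2* over *Ecm1* were neighbors whose values did not overlap between mice, although *Fn1* was above *Postn*, *Ecm1* above *Tnxb* and *Thbs3* above *Tnc* within each of the 3 mice. In HET the neighbors without overlap were *Sparc* over *Fn1*, *Myoc* over *Thbs2*, *Thbs2* over *Thbs1* and *Ecm1* over *Tnxb*. *Thbs1* stood eighth in WT, at 2.85 ± 0.835, and sixth in HET, at 6.99 ± 1.24, and was the gene whose place moved most.

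The summed level of the 10 genes, most of it *Sparc* and *Fn1*, was 1121, 1380 and 1752 CPM in HET replicates 1 to 3 and 685, 1024 and 868 CPM in WT replicates 1 to 3, or between 0.116% and 0.183% of the reads in HET and between 0.0661% and 0.0999% in WT. HET replicate 3 was the highest of the 6 mice in 8 genes, the exceptions being *Thbs2* and *Thbs3*, and WT replicate 1 was the lowest in 9, the exception being *Thbs2*. Without WT replicate 1 the median log2 fold change of the 10 genes was 0.60, without WT replicate 3 it was 0.98, and in either case all 10 genes stayed above 0.

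Other genes of the same families and other matricellular genes were listed, 30 in all, and 24 of them had enough reads to be tested. Of these, 23 had a higher and 1 a lower mean in HET, and none passed the adjusted threshold in edgeR. At an unadjusted p under 0.05, 13 were higher, against 5.76% of all genes tested. DESeq2 called 5, *Ccn3*, *Fstl1*, *Fndc1*, *Olfml3* and *Tgfbi*, against 1.12% of the genes to which it gave an adjusted p. The median log2 fold change of the 24 was 0.74. In 9 the genotypes did not overlap with HET the higher, against 7.55% of all genes tested. *Tnr*, *Tnn*, *Spock1*, *Ccn6*, *Olfm3* and *Olfm4*, most of them known from nerve, bone or gut, had too few reads to be tested.

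The largest fold change of the relatives was that of *Comp*. It encodes the pentameric thrombospondin-5 of cartilage and tendon and read 11.6, 34.1 and 30.0 CPM in HET and 3.75, 6.74 and 10.2 CPM in WT, a log2 fold change of 1.85 (SE 0.55, adjusted p = 0.444 in edgeR and 0.117 in DESeq2). *Thbs4*, the thrombospondin of tendon and muscle attachment sites, read 152, 251 and 221 CPM in HET and 48.1, 109 and 125 CPM in WT, a log2 fold change of 1.14 (SE 0.41, adjusted p = 0.582 in edgeR). The genotypes did not overlap in either gene. Both varied more within a genotype than *Thbs1*, and HET replicate 1 was the lowest HET mouse for both.

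Among the cellular communication network (CCN) family, *Ccn3* had the smallest p of the tested relatives in edgeR, though not in DESeq2, with 10.6, 8.91 and 12.8 CPM in HET and 6.32, 5.78 and 6.85 CPM in WT and a log2 fold change of 0.77 (SE 0.16, adjusted p = 0.108 in edgeR and 0.00433 in DESeq2). *Ccn1* and *Ccn2*, which are targets of mechanical and YAP signaling, had log2 fold changes of 0.07 (SE 0.12) and 0.42 (SE 0.34) with overlapping genotypes. *Fstl1*, a SPARC-family secreted glycoprotein, read 147, 129 and 223 CPM in HET and 83.9, 110 and 94.5 CPM in WT (log2 fold change 0.79, SE 0.20, adjusted p = 0.263 in edgeR and 0.00139 in DESeq2). *Sparcl1*, or hevin, the closest relative of *Sparc*, was level between the genotypes, at 279, 264 and 298 CPM in HET and 270, 282 and 274 CPM in WT (log2 fold change 0.03, SE 0.08). *Vtn*, which encodes the plasma adhesion protein vitronectin, was the only one of the 24 tested relatives with a log2 fold change below 0, at -0.18 (SE 0.19). *Olfml3* and *Fndc1* read higher in every HET mouse than in any WT mouse, with log2 fold changes of 0.83 (SE 0.25) and 0.83 (SE 0.23), as did *Olfm1* with 0.39 (SE 0.12).

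The receptors stood closer to 0. Of 19 genes for integrin chains, syndecans, CD36, CD47, stabilin-1 and the thrombospondin-binding calcium channel subunit *Cacna2d1*, 15 had a higher and 4 a lower mean in HET, with a median log2 fold change of 0.21. None passed the adjusted threshold in edgeR, and 5 were higher at an unadjusted p under 0.05, against 5.76% of all genes tested. DESeq2 called 1, *Itgb3*, against 1.12% of the genes to which it gave an adjusted p. The genotypes did not overlap in 4 receptors with HET the higher, against 7.55% of all genes tested. They did not overlap in 1 with HET the lower, *Cacna2d1* (log2 fold change -0.18, SE 0.10), which held for 884 of all genes tested. *Itgb3*, the beta3 chain that pairs with alphav to bind RGD, read 5.02, 3.73 and 4.31 CPM in HET and 2.14, 2.34 and 2.47 CPM in WT, a log2 fold change of 0.91 (SE 0.19, adjusted p = 0.108 in edgeR and 0.0162 in DESeq2). The classical fibronectin receptor genes *Itga5* and *Itgb1* had log2 fold changes of 0.31 (SE 0.14) and 0.06 (SE 0.09), and *Itgav* had 0.02 (SE 0.13). *Cd36*, *Cd47* and *Sdc4*, whose products bind thrombospondins or fibronectin, had log2 fold changes of -0.17 (SE 0.11), 0.21 (SE 0.10) and -0.18 (SE 0.10). *Itgb7* and *Itga4*, chains of leukocyte integrins that bind fibronectin, had log2 fold changes of 1.06 (SE 0.38) and 0.67 (SE 0.24) at low levels, at most 1.26 CPM for *Itgb7* and 3.60 CPM for *Itga4*. *Stab1* and *Sdc2*, a scavenger receptor of macrophages and sinusoidal endothelium and a heparan sulfate proteoglycan, had log2 fold changes of 0.34 (SE 0.11) and 0.43 (SE 0.15).

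**Figure D3:**
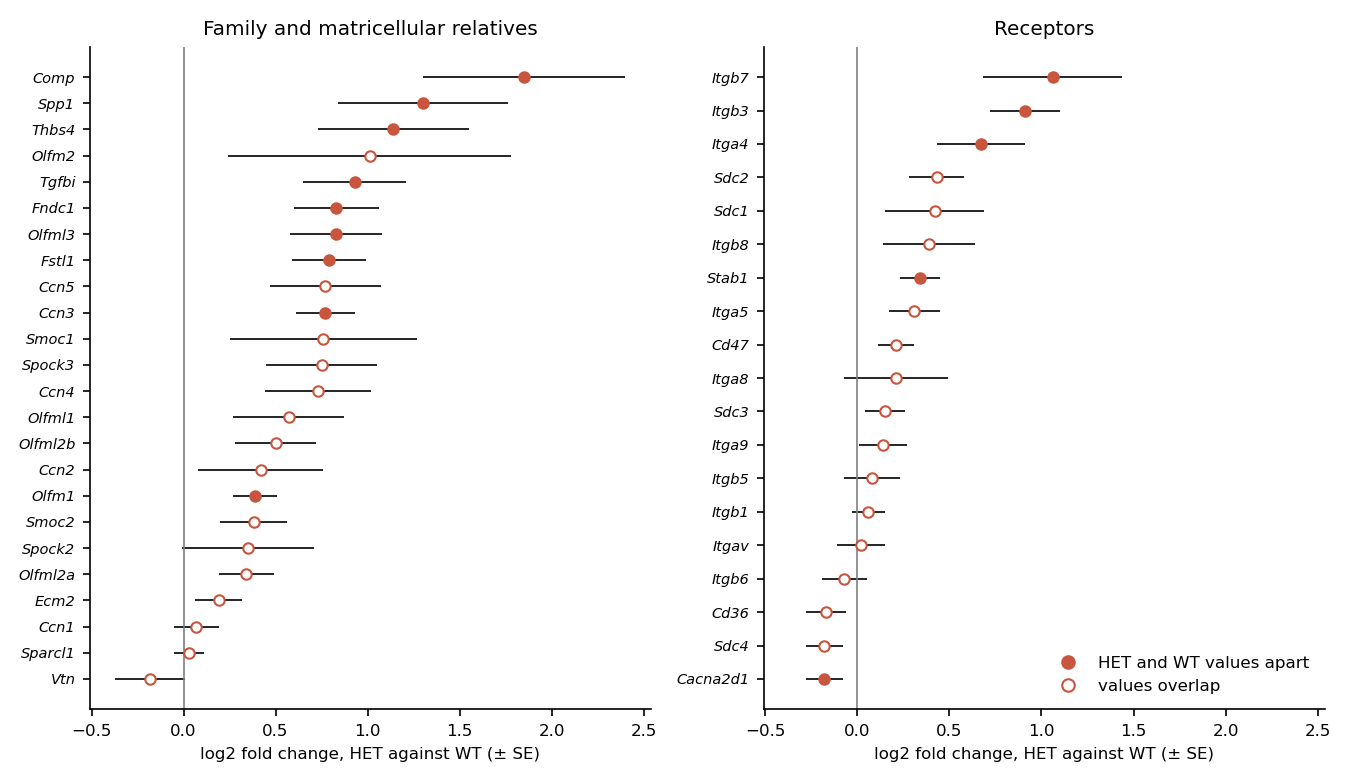
log2 fold change of HET against WT with its SE (horizontal axis) for the 24 tested relatives (left) and the 19 receptors (right), filled where the HET and WT values are apart. The relatives range from -0.18 (*Vtn*) to 1.85 (*Comp*), and the receptors from -0.18 (*Sdc4*) to 1.06 (*Itgb7*).

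Markers of other cells were summed in each library, since a whole muscle mixes cell types and more cells of a type cannot be told apart from more RNA per cell. The 14 fibroblast and fibro-adipogenic progenitor markers summed to between 2879 and 4073 CPM in HET and between 1373 and 2204 CPM in WT. All 14 had a higher mean in HET (median log2 fold change 0.80), where 45.6% of all genes tested had a log2 fold change above 0. Among the 14, 1, *Pi16*, passed the threshold in edgeR (log2 fold change 1.06, adjusted p = 0.0452), against 0.143% of all genes tested. The 10 tenocyte markers summed to between 344 and 565 CPM in HET and between 124 and 274 CPM in WT, all 10 with a higher mean (median 0.95), though *Scx*, a defining transcription factor of tendon, read 24.9, 34.5 and 27.3 CPM in HET and 21.6, 28.2 and 28 CPM in WT. The 13 macrophage markers summed to between 92.6 and 130 CPM in HET and between 51.7 and 58.2 CPM in WT. Of these markers, 5 (*Adgre1*, *Csf1r*, *C1qa*, *C1qb* and *Lyz2*) were called higher in edgeR, against 0.143% of all genes tested. DESeq2 called 6 of the fibroblast, 2 of the tenocyte and 8 of the macrophage markers higher. Its share was 1.12% of the genes to which it gave an adjusted p. The fibroblast, tenocyte and macrophage sums of the genotypes did not overlap, like the summed level of the 10 genes.

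The other lists gave sums that overlapped, except for pericytes and adipocytes. Endothelial markers summed to between 677 and 827 CPM in HET and between 729 and 897 CPM in WT, smooth muscle markers to between 154 and 212 against between 123 and 203 CPM, and Schwann cell markers to between 114 and 135 against between 94.2 and 141 CPM. The pericyte sum was between 971 and 1139 CPM in HET and between 1162 and 1275 CPM in WT, but most of it was *Rgs5* (570 ± 74.2 against 715 ± 47.5 CPM, SD, n = 3 each), the genotypes overlapped in the other markers, and the median log2 fold change of the 6 was -0.03. The adipocyte sum was between 3834 and 4019 CPM in HET and between 4382 and 5766 CPM in WT, and nearly all of it was *Car3* (3574 ± 70.1 against 4639 ± 746 CPM), which muscle fibers also express. Of the 6 adipocyte markers, 4 had a higher mean in HET, among them *Adipoq* (log2 fold change 1.27, SE 0.84) and *Cfd* (1.52, SE 0.72), with overlapping genotypes and a median of 0.86 over the list. Slow muscle markers summed to between 78905 and 91219 CPM in HET and between 83613 and 86476 CPM in WT. No listed marker was at 0 in all libraries, and the part of these cell types in the levels of the 10 genes was not tested. The ratio that follows is a description and not such a test.

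**Figure D4:**
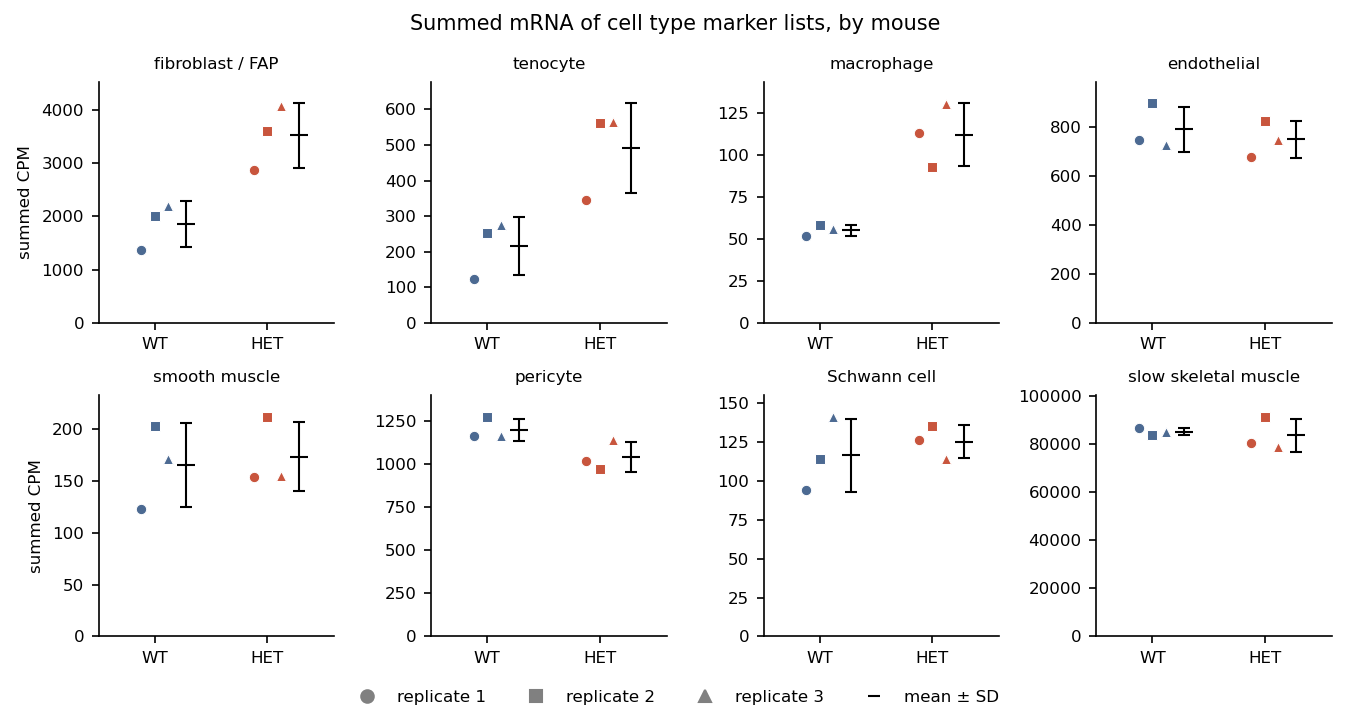
Summed level of the markers of 8 cell types (vertical axes, CPM from 0) in the 3 WT and 3 HET mice, with 1 point per mouse and the mean ± SD in black. The fibroblast, tenocyte and macrophage sums are higher in every HET mouse than in any WT mouse, the pericyte sum is lower in every HET mouse, and the endothelial, smooth muscle, Schwann cell and slow muscle sums overlap.

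Each of the 10 genes was then expressed per 1000 CPM of the summed fibroblast markers of the same library, a ratio added after the values had been seen. In none of the 10 were the genotypes apart on this scale, 4 had a higher and 6 a lower mean log2 ratio in HET, and the median log2 difference was -0.14. *Thbs1* kept the largest positive difference, 0.39, with 15.3, 9.47 and 12.1 in HET and 8.36, 9.95 and 9.30 in WT. *Thbs2* had the largest negative one, -0.64, with 16.7, 14.1 and 12.4 in HET and 28.2, 25.2 and 15.5 in WT. *Fn1*, *Tnc* and *Ecm1* had log2 differences of 0.20, 0.25 and 0.21, *Sparc* and *Tnxb* of -0.35 and -0.33, and *Myoc* of -0.04. These differences were not tested, and the collagen genes *Col1a1*, *Col1a2* and *Col3a1* hold much of the denominator.

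**Figure D5:**
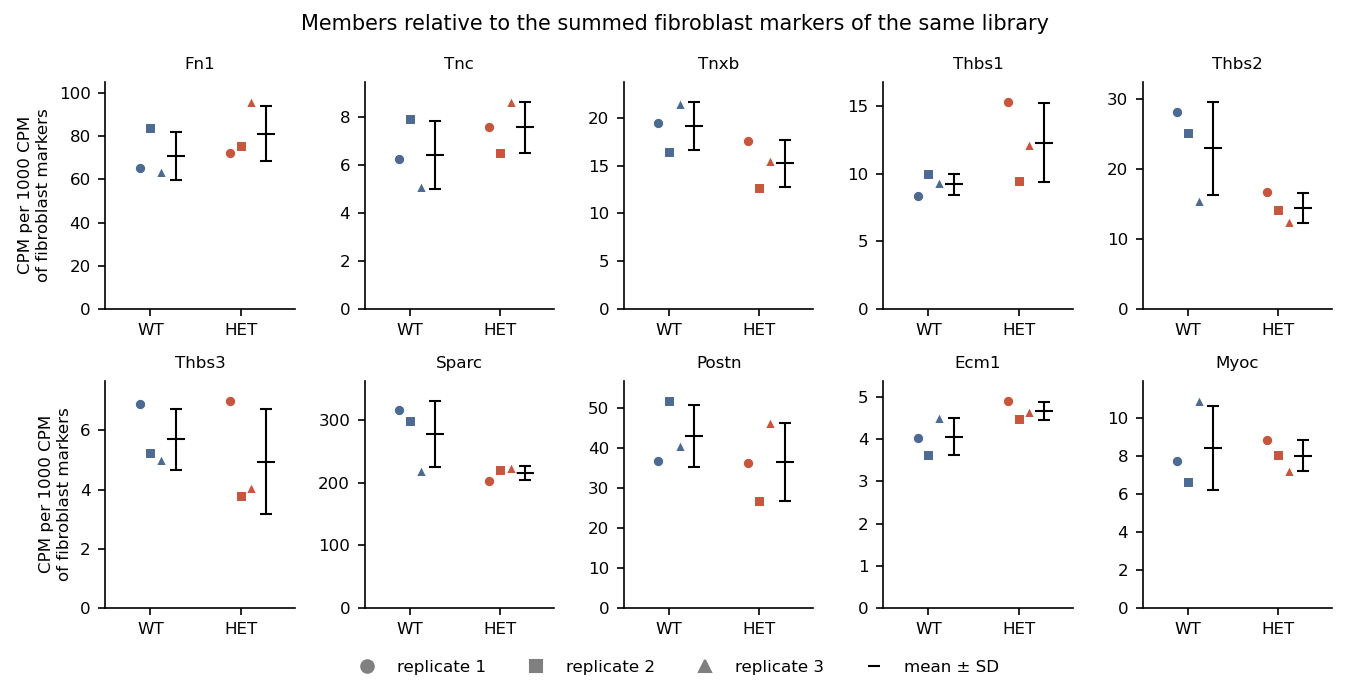
Level of each of the 10 genes per 1000 CPM of the summed fibroblast markers of the same library (vertical axes, from 0) in the 3 WT and 3 HET mice, with 1 point per mouse and the mean ± SD in black. The genotypes overlap in all 10 panels, from a log2 difference of -0.64 (*Thbs2*) to 0.39 (*Thbs1*).

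For each of the 10 genes, the genes whose log2 levels followed it most closely over the 6 mice were found among 12395 genes with a mean of at least 1 CPM, by the root mean square difference of the centered log2 values. *Sparc* was followed most closely by *Vim* (0.075) and then by *Mmp14* and *Col22a1*, and *Fn1* by *Col11a1* (0.129), *Col16a1* and *Cadm3*. *Postn* was nearest to *Ccn4* (0.102), *C1qtnf2* and *Krt80*, *Ecm1* to *Pcolce2* (0.077), *Mmp19* and *Ptgis*, and *Tnxb* to *Axl* (0.079), *Procr* and *Tsku*. *Tnc* was nearest to *Cadm3* (0.135), *Pqlc3* and *Tlr2*, and *Thbs3* to *Itgb3* (0.109), *Dse* and *Entpd2*. *Thbs1* was nearest to *C1qc* (0.092), *Ccl9* and *Emilin2*, of which *C1qc* is in the macrophage marker list and *Ccl9* encodes a chemokine. *Myoc* was nearest to *Ntrk2* (0.043), *Gsn* and *G6pdx*, and *Thbs2*, which varied least over the 6 mice, to *Spsb4* (0.049), *Rin2* and *Snhg18*. The values give the distance in log2 units and are a description over 6 mice of which the genotype is a part.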

How the data were processed

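RNA from the soleus was sequenced as single reads of polyA libraries, 1 per mouse. Per the labels and the study's methods, the authors aligned with STAR 2.7.3a to GRCm38.p6 and deposited raw counts per gene from featureCounts 2.0.3 in its reverse-stranded mode. The authors also deposited a normalized signal (counts over DESeq2 size factors that ran from 0.7734 to 1.4171), used here for gene symbols. The third deposited file holds the authors' log2 fold changes and p-values and was not used.

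The 10 genes and all lists were chosen with earlier results of these data known. Counts were tested in R 4.3.3 with edgeR 4.0.16 (filterByExpr with a minimum count of 10, TMM factors, robust quasi-likelihood test, two-sided, genotype as the only term, Benjamini-Hochberg over 14696 genes, threshold 0.05). CPM use TMM factors. Levels per length divide CPM by the kilobases of exon that featureCounts gives. The SE is the log2 fold change over the square root of F. Ratios were compared with exact permutation tests, whose smallest p with 3 mice against 3 is 0.1, so that no ratio could pass 0.05. Named genes are the 10, and of the relatives and receptors those past a threshold, at the ends of the range or with the smallest p. *Thbs4*, *Ccn1*, *Ccn2*, *Sparcl1*, *Itga5*, *Itgb1*, *Itgav*, *Cd36*, *Cd47* and *Cacna2d1* were added after their values were seen. Alternatives were other scaling, filters, DESeq2 1.42.0, limma-voom (limma 3.58.1), non-robust dispersion, the replicate block, length and GC trends, and each mouse left out. GC trends and the ratio to fibroblast markers were added after seeing the data. Scripts were tested on simulated data. Coding motifs come from GENCODE M21 and promoters from RefSeq (GRCm38.p6).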

Additional observations from a re-analysis of the deposited data

How the results depend on the processing

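All 10 genes kept their direction in all 180 values over 18 alternatives, 24 of which passed the threshold, and in 12 alternatives no member passed. Members called higher, 0 in the main test, numbered 6 without a filter on low counts (*Ecm1*, *Sparc*, *Thbs1*, *Thbs3*, *Tnc*, *Tnxb*) and 6 with DESeq2. Over mice left out, the count of members ran from 0 to 3, the 3 (*Ecm1*, *Myoc*, *Tnxb*) without WT replicate 3. Genes called higher, 21 in the main test, numbered 386 without a filter, 200 with DESeq2, 3 with limma-voom, 6 with non-robust dispersion and 9 with the GC trend removed, and from 0 to 77 with a mouse left out. Genes called lower, 1 in the main test, numbered 18, 10, 0 and 0 in the first 4 of these and from 0 to 6 with a mouse left out. The causes were not tested. Whether the replicate numbers pair the mice is not known. The correlations of same-numbered mice were 0.203, -0.006 and -0.035. The first was the highest of all pairs, but not every mouse correlated best with its own number. With so few mice these correlations cannot settle whether the numbers are pairs. With the replicate block, 4 members (*Ecm1*, *Fn1*, *Thbs1*, *Tnc*), 114 genes higher and 2 lower were called, 4, 117 and 2 with the length trend also removed, and 1 (*Ecm1*), 106 and 2 with the GC trend removed. Averaged over the genes tested, same-genotype libraries differed by more than counting noise (chi-square from 16.1 to 46.8 for each gene on average). This average does not show how much counting noise adds in genes with few reads.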
